A study of Mus musculus with 6 samples.

Results

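The replication-dependent histone genes are the rows of the expression table whose gene symbol begins with Hist1h, Hist2h, Hist3h or Hist4h, the older mouse names that give the cluster and then the histone type. Of 24421 rows, 68 met this rule. By type, 6 were H1 linker histone genes, 18 were H2A, 19 were H2B, 12 were H3 and 13 were H4. By cluster, 54 lay in Hist1 on chromosome 13, 10 in Hist2 on chromosome 3, 3 in Hist3 on chromosome 11 and 1, Hist4h4, on chromosome 6. One of the Hist3 rows, Hist3h2bb-ps, is named as a pseudogene.

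RNA was sequenced from retinal endothelial cell preparations of C57BL/6 pups at postnatal day 7. The 3 control libraries carried the floxed annexin A3 alleles alone (Anxa3 fl/fl), and the 3 mutant libraries carried the same alleles with Tie2-Cre, a recombinase driven by a promoter active in endothelial and blood-lineage cells. Cre was present only in the mutants, so its own effect cannot be told apart from that of the Anxa3 deletion. The labels do not say whether a library came from 1 pup or from several, and the p-values reflect only how these libraries vary, which may in part be technical. The labels also carry a letter for each library. A, C and D are the control replicates 1 to 3, and B, E and F the mutant replicates 1 to 3, so A to C hold 2 controls and 1 mutant, and D to F hold 1 control and 2 mutants. The labels leave their meaning unstated. Below, the 3 values given for a group follow the order of its replicates.

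Most of these genes are transcribed in S phase, when newly made DNA is packed into nucleosomes, each built from the core histones H2A, H2B, H3 and H4 and sealed by H1. Their mRNAs generally carry no poly(A) tail. They end instead just after a conserved stem-loop that is bound by the stem-loop binding protein Slbp, and they are degraded when DNA synthesis stops. Their transcription is organised by Npat, which works with factors specific to each histone type. In the retina after birth, the cells that divide include vascular endothelial cells and retinal progenitors. The library kit named in the labels, TruSeq RNA v2, is sold for polyadenylated RNA, so the values describe whichever histone transcripts entered such libraries, and the effect of that step on them was not tested.

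The stem-loop was searched for as GG, any 2 bases, C, 4 T, any base, AG, any 2 bases and CC, on the transcript strand, within 200 bases after the stop codon of GENCODE M21 transcripts (GRCm38, the assembly also called mm10). It was found in 44 of the 52 histone genes whose annotated 3′ end allowed the search (84.6%). Of 20914 other genes, 5 held it (0.0239%), among them H2afx, which codes for the H2A variant of DNA damage signalling. The first base of the match lay 21 to 58 bases after the stop codon, with a median of 31. The examples below show the 16-base match in capitals with 5 bases before and 6 after it, for genes of each type, with 3 from H4 because the stem varied there.
Hist1h1c (H1): caaaaGGCTCTTTTCAGAGCCaccact
Hist3h2a (H2A): ccaaaGGCTCTTTTCAGAGCCacccac
Hist1h2bb (H2B): ccaaaGGCTCTTTTAAGAGCCacccac
Hist1h3e (H3): aaaacGGCTCTTTTAAGAGCCacctcc
Hist1h4c (H4): caaaaGGCCCTTTTCAGGGCCacccac
Hist1h4b (H4): caaaaGGTCCTTTTCAGGACCactcac
Hist2h4 (H4): ctaacGGCCCTTTTTAGGGCCaaccac
On GRCm38 the matches are at chr13:23739512-23739527 (plus strand, Hist1h1c), chr11:58955172-58955187 (plus, Hist3h2a), chr13:23747203-23747218 (plus, Hist1h2bb), chr13:23561903-23561918 (minus, Hist1h3e), chr13:23698089-23698104 (minus, Hist1h4c), chr13:23757366-23757381 (plus, Hist1h4b) and chr3:96262939-96262954 (minus, Hist2h4), all within the annotated 3′ UTR. The stem differed between H4 and the other types. All 33 matches outside H4 began with GGCTC, and none of the 11 in H4 did. There, 9 began with GGCCC and 2 with GGTCC. The most frequent form, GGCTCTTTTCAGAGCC, was found in 26 genes, and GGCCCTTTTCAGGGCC in 7.

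Promoters, here the 250 bases before the annotated start, were taken from RefSeq (GRCm38.p6) and matched 62 of the 68 genes. The windows of an abundant gene of each type are shown because the motifs they hold differ by type. Capitals mark matches on either strand to CCAAT (bound by NF-Y), TATAAA (the TATA box), ATTTGCAT (the octamer bound by Pou2f1), AAACACA (the AC box known from H1 promoters) and GTCCG (the core letters bound by Hinfp, an H4 activator).
Hist1h4c (H4): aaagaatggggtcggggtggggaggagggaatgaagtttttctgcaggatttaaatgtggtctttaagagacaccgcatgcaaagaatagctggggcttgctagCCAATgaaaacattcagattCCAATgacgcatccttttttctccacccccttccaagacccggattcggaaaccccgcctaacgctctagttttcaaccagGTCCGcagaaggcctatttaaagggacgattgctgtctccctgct
Hist1h1c (H1): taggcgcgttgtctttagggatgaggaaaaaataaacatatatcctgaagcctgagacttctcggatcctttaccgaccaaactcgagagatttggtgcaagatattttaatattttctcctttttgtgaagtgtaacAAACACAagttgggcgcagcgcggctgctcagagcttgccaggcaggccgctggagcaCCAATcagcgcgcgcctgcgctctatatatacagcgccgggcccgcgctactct
Hist2h2bb (H2B): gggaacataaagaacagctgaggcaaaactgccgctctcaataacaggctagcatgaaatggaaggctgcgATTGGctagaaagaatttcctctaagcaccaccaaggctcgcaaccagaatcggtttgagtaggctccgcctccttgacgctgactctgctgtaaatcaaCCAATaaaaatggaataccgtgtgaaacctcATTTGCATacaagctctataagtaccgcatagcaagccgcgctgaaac
Hist3h2a (H2A): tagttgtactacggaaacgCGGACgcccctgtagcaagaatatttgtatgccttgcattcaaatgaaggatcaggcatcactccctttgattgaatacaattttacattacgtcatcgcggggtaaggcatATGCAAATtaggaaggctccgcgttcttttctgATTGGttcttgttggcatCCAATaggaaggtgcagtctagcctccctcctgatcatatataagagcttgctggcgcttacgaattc
Hist1h3e (H3): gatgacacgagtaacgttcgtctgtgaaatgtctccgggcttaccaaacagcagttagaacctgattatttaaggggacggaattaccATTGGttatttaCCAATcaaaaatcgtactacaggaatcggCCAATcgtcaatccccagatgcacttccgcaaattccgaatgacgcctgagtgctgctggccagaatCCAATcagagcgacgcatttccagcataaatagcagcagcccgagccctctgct
The windows lie at chr13:23698459-23698708 (minus strand), chr13:23738557-23738806 (plus), chr3:96269450-96269699 (plus), chr11:58954435-58954684 (plus) and chr13:23562386-23562635 (minus), in the order shown. The shared CCAAT letters were in 51 of 62 histone promoters (82.3%), against 34.5% of all 27025 promoters of the same length. They were in 48 of 50 promoters of the other types but in 3 of 12 of H4. GTCCG had the opposite distribution. It was in 11 of 12 H4 promoters and in 10 of the other 50, 8 of those in H2A genes, against 19.3% of all promoters. The octamer was found only in H2A (7 of 18) and H2B (6 of 16) promoters, together 21.0% of histone promoters against 1.61% of all. AAACACA was in 5 of 6 H1 promoters, in 14.5% of histone promoters and in 6.22% of all. TATAAA was in 46.8%, against 13.0%. Of all pairs of different motifs in these 62 windows, 1 overlapped, and a match describes the letters only. In 13 pairs, H2A and H2B genes on opposite strands start 164 to 281 bases apart. Where both have a window, the windows overlap and the same site can be counted for both genes, as for the octamer of Hist1h2ah and Hist1h2bk. A window can also reach into the neighbour's coding sequence, as that of Hist1h2ak does into Hist1h2bn. The histone counts are thus not of separate sites.

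Levels are in FPKM, a read density per length of gene and per depth of library, and group means are followed by SD with 3 libraries per group. Averaged over the 6 libraries, 5 genes exceeded 100 FPKM, 31 lay between 10 and 100, 20 between 1 and 10, and 2, the H1 gene Hist1h1t and the H4 gene Hist1h4n, between 0 and 1. The remaining 10 were listed at 0 in every library. The highest 3 (Hist1h1c, Hist1h4c and Hist1h4d) made up 38.8% of the summed histone FPKM and the highest 12 made up 73.3%. H4 and H1 were the largest types by sum, at 773 ± 120 and 618 ± 35.1 FPKM in controls, followed by H2B at 276 ± 43.2, H3 at 183 ± 23.1 and H2A at 182 ± 23.0 FPKM. Genes listed at 0 were 5 of 18 in H2A, 2 of 19 in H2B, 2 of 12 in H3, 1 of 13 in H4 and 0 of 6 in H1. The sums may therefore be incomplete to unequal degrees, and the order of types is uncertain.

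Near-identical copies limit what these levels mean for single genes and for the sums by type. The coding sequence of 10 genes is identical to that of another member (Hist1h2bq with Hist1h2br, Hist1h2ao with Hist1h2ap, Hist1h4m with Hist1h4n, Hist2h3c1 with Hist2h3c2, and Hist2h2aa1 with Hist2h2aa2). Of these 10, 9 were listed at 0 in every library, and the other, Hist1h4n, had at most 9 recovered reads. Only Hist1h2aa was listed at 0 without such a twin. It is known as a testis histone gene, as are Hist1h2ba (0 to 3.16 FPKM) and Hist1h1t (0.112 to 0.517 FPKM). Among the genes tested, the median share of coding 50-base windows found in no other gene was 28.5%. Hist1h2ag and Hist1h2ad had none, while Hist1h1a, Hist1h1b, Hist2h2bb, Hist2h2be and Hist4h4 were distinct throughout. How the authors assigned reads that match several copies is not given in the sources used here, so levels of genes with few distinct windows are uncertain.

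**Figure D1:**
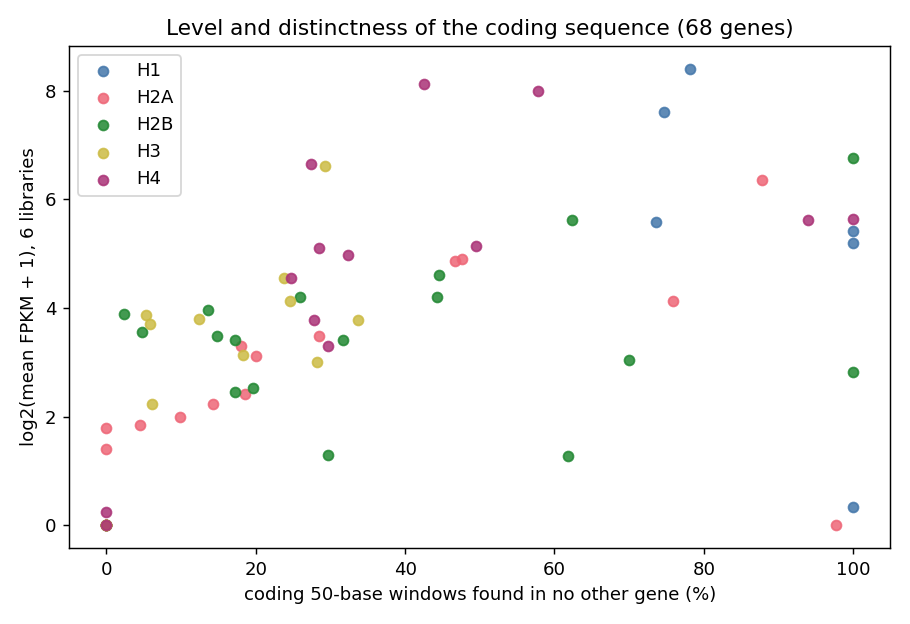
Each point is 1 of the 68 histone genes, coloured by type, with the share of its coding 50-base windows found in no other gene (horizontal axis, %) and its log2(mean FPKM + 1) over the 6 libraries (vertical axis). The tested genes with 0% distinct windows, Hist1h2ag and Hist1h2ad, averaged 2.46 and 1.65 FPKM, while the median of the 58 genes above 0 was 13.2 FPKM, and genes with few distinct windows reach that level, as Hist1h2bc does with 2.41% and 13.8 FPKM; genes share sequence and libraries, so no test is given.

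Anxa3, the deleted gene, had 18.7, 17.7 and 43.4 FPKM in controls against 9.78, 12.5 and 15.1 FPKM in mutants. All mutants were below all controls, though not at 0. The log2 difference was -0.93 (SE 0.32), with an exact two-sided permutation p of 0.1, the smallest that 3 libraries against 3 allow. Without control replicate 3 it was -0.53. Recovered reads per library numbered 21386054 to 30904076, and 13332 to 13695 genes reached 1 FPKM. All 20 pan-endothelial markers were tested and present, while 18 photoreceptor genes had the higher mean level, 7.17 to 7.85 against 4.71 to 5.82 on the log2(FPKM + 1) scale. The samples are therefore mixed, and fewer cells of a type cannot be told apart from less RNA per cell.

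No histone gene passed the test between genotypes. Mean histone levels were above those of the controls in the mutants for most genes, but the 2 groups of libraries overlapped for most of them. The summed FPKM of all 68 genes was 2105, 1784 and 2208 in controls against 1844, 2549 and 2960 in mutants. Mutant replicates 2 and 3 were above all controls, and mutant replicate 1 was below control replicates 1 and 3. The group sums were 2032 ± 221 and 2451 ± 564 FPKM (SD, n = 3 each), a ratio of 1.21 and a log2 ratio of 0.27. Without mutant replicate 3 the log2 ratio was 0.11, and without mutant replicate 1 it was 0.44. Counted as recovered reads, histone genes took 0.114%, 0.0993% and 0.119% of all reads in controls and 0.101%, 0.135% and 0.167% in mutants.

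**Figure D2:**
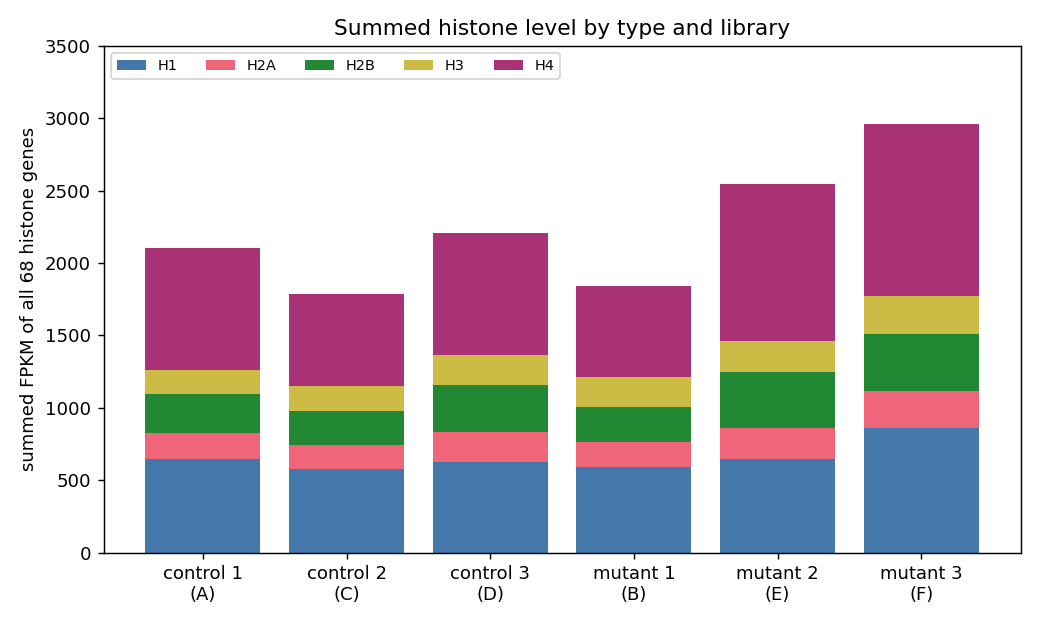
Stacked bars give the summed FPKM of all 68 histone genes in each library, split by histone type (vertical axis from 0). The bars range from 1784 in control replicate 2 to 2960 in mutant replicate 3, and mutant replicate 1, at 1844, stands among the controls.

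Across genes, limma on log2(FPKM + 1) called 0 of the 13622 genes tested (0%), and 0 of the 56 histone genes that reached 1 FPKM in at least 3 libraries. An unadjusted p under 0.05 was found for 8 histone genes higher in the mutants, against 0.896% of all genes tested, and for 0 lower, against 0.316%. The 8 include the pseudogene Hist3h2bb-ps and Hist1h2ad. The log2 difference was above 0 for 51 of 56, against 47.5% of all genes. Its median was 0.29 for histone genes and -0.01 for all genes tested, with a range over histone genes from -0.08 to 0.92. These genes share sequence and libraries, so the counts describe these 6 libraries. Of the genes tested, 2 reached 1 FPKM in only 1 control library (Hist1h2ad and Hist1h2ai), so they passed the filter mainly through the mutants. Their differences above 0 add no support, and the highest difference, 0.92, was that of Hist1h2ai. The median difference depended on single libraries, being 0.13 without mutant replicate 3, 0.17 without control replicate 2, 0.43 without control replicate 3 and 0.45 without mutant replicate 1. An unadjusted p under 0.05 was then found for 23 histone genes without control replicate 3 (1.82% of all genes tested were higher at that p) and for 23 without mutant replicate 1 (2.92%). The count was 5 without control replicate 1 (1.56%), 4 without control replicate 2 (0.649%), 2 without mutant replicate 2 (0.541%) and 6 without mutant replicate 3 (0.526%). When limma weighted the libraries by their fit, 15 histone genes were called, all higher, against 0.918% of all genes higher and 0.147% lower. The estimate of these weights stopped before convergence, so these calls are uncertain.

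**Figure D3:**
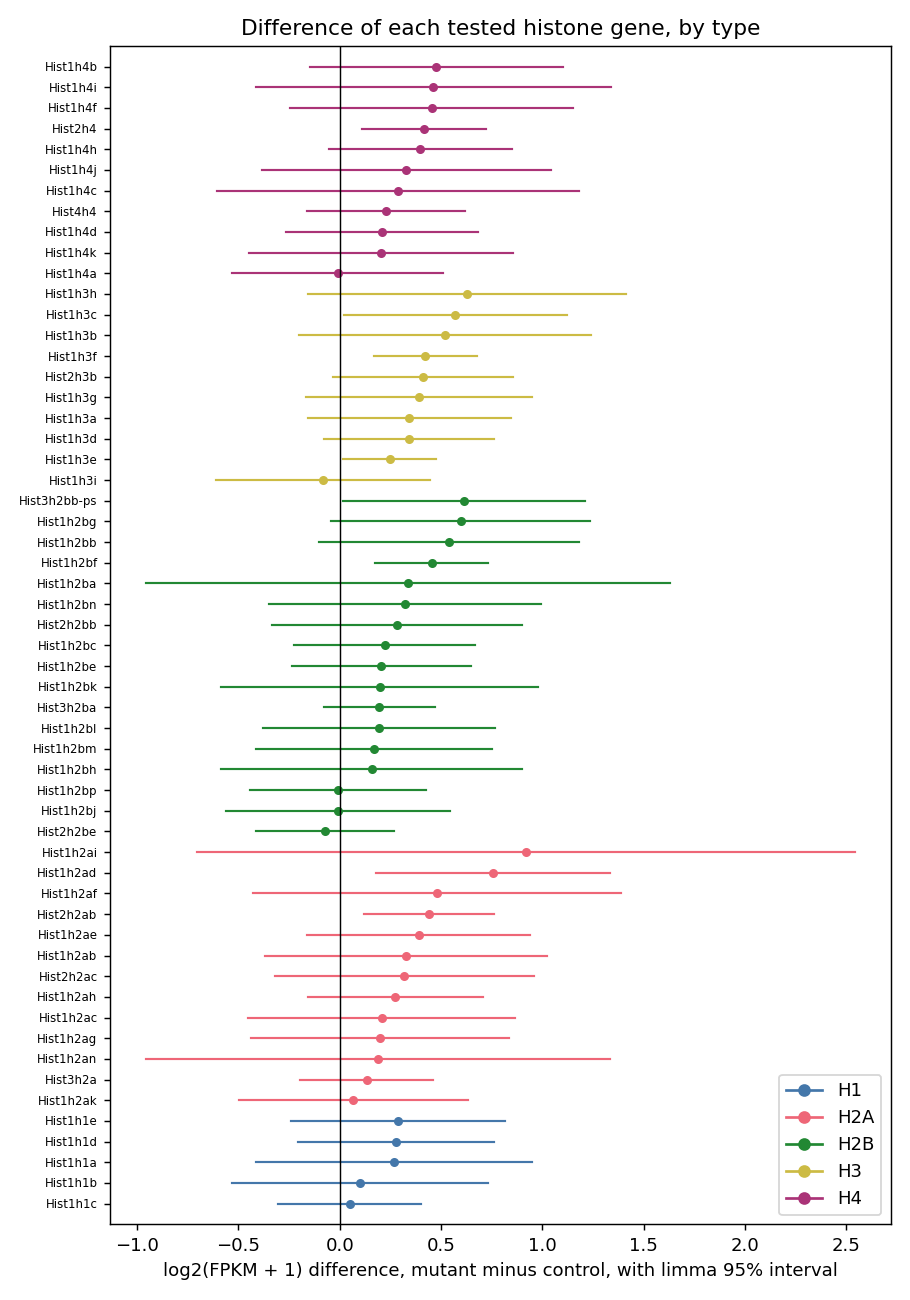
Points give the log2(FPKM + 1) difference, mutant minus control, of the 56 tested histone genes, grouped by type, and lines the limma 95% interval before any adjustment. Most points lie right of 0, between -0.08 and 0.92, and most intervals cross 0.

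The libraries also differed along their letters. All of D to F were above all of A to C for 34 of 56 histone genes, against 15.1% of all genes tested, and below for 1, Hist2h2be, against 20%. The highest library was one of D to F for 54 genes (52.3% of all genes tested) and was mutant replicate 3 for 39 (14.9%). The lowest was one of A to C for 49 (46.2%). Letter and genotype partly coincide, so values within each set of letters are also given. Within A to C, mutant replicate 1 exceeded the mean of its 2 controls by a median log2 difference of 0.09, with 32 of 56 genes above 0. Within D to F, the 2 mutants exceeded control replicate 3 by 0.18, with 38 above 0. With the letter as a block, the median was 0.11, 42 genes were above 0 (50.1% of all genes), 9 had an unadjusted limma p under 0.05 (3.62% of all genes higher in mutants), and 0 were called. The median ratio of the highest to the lowest library was 2.08 for the tested histone genes and 1.38 for all genes tested.

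**Figure D4:**
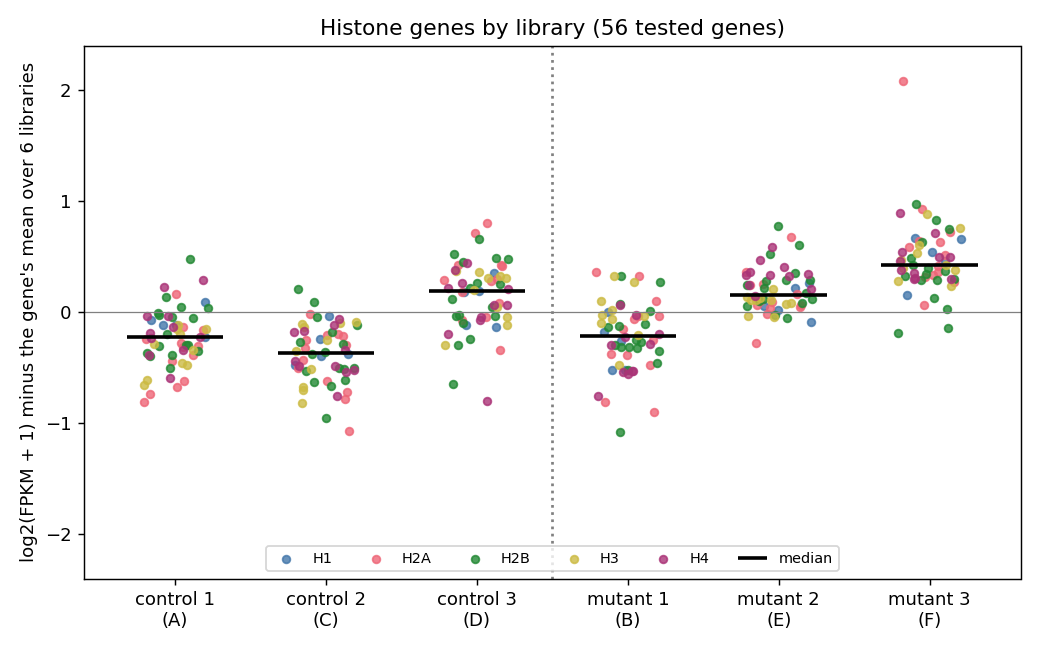
Each point is 1 of the 56 tested histone genes in 1 library, as log2(FPKM + 1) minus its own mean over the 6 libraries, coloured by type, with the median as a bar and the letter of each library in brackets. The medians of control replicate 3 (D) and mutant replicates 2 and 3 (E and F) lie above 0, and those of A, B and C below.

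H1, the linker histone that closes the nucleosome, had the lowest ratio of mutant to control sums of the 5 types, 1.13, from 618 ± 35.1 FPKM in controls and 698 ± 142 in mutants. Its main gene, Hist1h1c, was the most abundant histone gene and had the lowest ratio of highest to lowest library among those tested, 1.22. It measured 360, 329 and 308 FPKM in controls and 338, 317 and 377 FPKM in mutants. The groups overlapped, and the log2 difference was 0.05 (SE 0.15, adjusted p = 0.9998 by limma). Hist1h1e, another somatic linker histone, measured 180, 160 and 175 FPKM in controls and 158, 192 and 302 FPKM in mutants, and mutant replicate 3 was far above the other 5 libraries. Its log2 difference of 0.29 (SE 0.23) was 0.02 when that library was left out. Hist1h1d measured 39.3, 35.2 and 52.7 FPKM in controls against 40.6, 48.0 and 67.6 in mutants. It divided by letter, with all of D to F above A to C, as did Hist1h1a and Hist1h1b. Hist1h1t was too low to be tested.

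H4, the most conserved core histone, had the largest sum and held 34.2% to 42.6% of the histone FPKM of a library. Hist1h4c led it and varied widely, at 319, 181 and 227 FPKM in controls and 154, 362 and 428 FPKM in mutants. Its lowest library was mutant replicate 1 and its highest mutant replicate 3, and the log2 difference of 0.29 (SE 0.39, adjusted p = 0.9998 by limma) was below its SE. Without mutant replicate 3 that difference was 0.00, and without mutant replicate 1 it was 0.74. Hist1h4d measured 244, 197 and 260 FPKM in controls and 204, 295 and 319 in mutants. Hist1h4h had 83.0, 71.6 and 101 FPKM in controls and 84.7, 129 and 127 FPKM in mutants. In both genes mutant replicate 1 lay within the control range, while the other mutants exceeded every control. Hist4h4, the lone gene of its cluster and distinct throughout its coding sequence, had 44.0, 42.6 and 46.9 FPKM in controls and 39.2, 61.2 and 59.7 FPKM in mutants, with mutant replicate 1 the lowest library and the other mutants the highest.

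Among H4 genes only Hist2h4 separated the groups without overlap. It measured 36.1, 42.3 and 45.2 FPKM in controls and 46.7, 60.4 and 59.0 FPKM in mutants. The log2 difference was 0.42 (SE 0.13, unadjusted p = 0.014, adjusted p = 0.9998 by limma) and was 0.32 with the letter as a block. Its coding sequence is 93.9% distinct, so it is among the better resolved H4 genes. At the other end, Hist1h4a had 19.2, 21.0 and 26.6 FPKM in controls and 14.9, 25.6 and 27.3 FPKM in mutants, a difference of -0.01 (SE 0.22).

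In H3, which carries many of the regulatory tail modifications, 9 of 10 tested genes had a difference above 0, against 47.5% of all genes tested. An unadjusted limma p under 0.05 was found for 3, against 1.21% in either direction. Genes of all types share these libraries, so a count within a type is no separate result. The type summed to 183 ± 23.1 FPKM in controls and 230 ± 31.4 FPKM in mutants. Hist1h3e, which held 47.3% of that sum, measured 87.3, 90.4 and 89.7 FPKM in controls and 98.6, 105 and 115 FPKM in mutants. The groups did not overlap, the SD of the controls was 1.63 FPKM, and the difference was 0.25 (SE 0.10, unadjusted p = 0.0384, adjusted p = 0.9998 by limma). Hist1h3f had the smallest p of any histone gene. It had 17.3, 18.5 and 21.5 FPKM in controls and 27.1, 23.5 and 27.1 FPKM in mutants, again with no overlap. The difference was 0.42 (SE 0.11, unadjusted p = 0.00517, adjusted p = 0.9998 by limma), and it lay between 0.36 and 0.51 when any 1 library was left out. Only 23.8% of the coding windows of Hist1h3f and 29.3% of those of Hist1h3e are distinct, so the levels of both are uncertain. Mutant replicate 1 was close to mutant replicate 3 in Hist1h3f, whereas in Hist1h4c they were the lowest and the highest library. In Hist2, Hist2h3b measured 10.1, 10.6 and 9.39 FPKM in controls and 10.03, 13.7 and 18.4 FPKM in mutants, with overlap. Hist1h3i had the lowest difference of all, -0.08 (SE 0.23), from 11.2, 11.8 and 16.5 FPKM in controls and 8.75, 12.3 and 16.7 FPKM in mutants.

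H2B genes, whose product pairs with H2A, gave 14 differences above 0 and 3 below among 17 tested (47.5% of all genes tested were above 0). The 17 include the pseudogene Hist3h2bb-ps, which had the highest of these differences, 0.61 (SE 0.26, unadjusted p = 0.0454, adjusted p = 0.9998 by limma). Hist2h2bb held 34.9% of the H2B sum and is distinct throughout its coding sequence. It measured 101, 80.4 and 102 FPKM in controls and 71.9, 149 and 139 FPKM in mutants. As in Hist4h4, mutant replicate 1 was the lowest library and the other mutants the highest (0.28, SE 0.27). Hist1h2bf, a low gene, separated the groups, with 3.61, 3.64 and 4.30 FPKM in controls and 5.84, 5.14 and 5.92 FPKM in mutants. The difference was 0.45 (SE 0.12, unadjusted p = 0.00601, adjusted p = 0.9998 by limma), from 38 to 71 reads per library and with 19.6% of its coding windows distinct. Hist1h2bb, by contrast, divided by letter, with 17.1, 15.3 and 22.9 FPKM in controls and 17.4, 27.3 and 40.1 FPKM in mutants. Hist2h2be stood alone in being lower in all of D to F. It had 6.77, 7.18 and 4.99 FPKM in controls and 6.46, 5.83 and 5.42 FPKM in mutants, a difference of -0.07 (SE 0.15). The stem-loop letters were not found in its GENCODE 3′ end. They were also not found for Hist1h2bc and Hist1h4a, which were higher in all of D to F than in all of A to C. Hist1h2bp was near the limit of detection, at 0.955 to 2.06 FPKM over all libraries, with a difference of -0.01.

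H2A genes had differences above 0 in 13 of 13 tested (47.5% of all genes tested), with 2 at an unadjusted limma p under 0.05 (1.21% in either direction). The 13 include Hist1h2ad and Hist1h2ai, which passed the filter mainly through the mutants, so their place in the count adds no support. Hist3h2a held 40.6% of the H2A sum, at 89.9, 79.5 and 63.1 FPKM in controls and 78.5, 90.5 and 84.0 FPKM in mutants. The groups overlapped (0.13, SE 0.14), and its lowest library was control replicate 3, not one of A to C. Hist2h2ac had 22.1, 18.7 and 33.5 FPKM in controls and 20.6, 32.5 and 41.2 FPKM in mutants, and Hist1h2ak had 22.6, 24.4 and 38.0 FPKM in controls and 21.4, 29.7 and 38.1 in mutants. Both were higher in all of D to F than in all of A to C. Hist2h2ab had no overlap between genotypes, with 13.02, 12.83 and 15.78 FPKM in controls and 15.83, 21.19 and 20.76 FPKM in mutants, so that control replicate 3 and mutant replicate 1 were nearly equal. The difference was 0.44 (SE 0.14, unadjusted p = 0.0133, adjusted p = 0.9998 by limma). Hist1h2ad, with no distinct coding window, also separated, at 0.848, 0.463 and 1.66 FPKM against 1.69, 3.00 and 2.22 FPKM. It is the other of the 2 genes at that p, but it passed the filter mainly through the mutants, so its separation adds no support.

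Altogether 6 of 56 tested histone genes had every mutant library above every control library, against 2.79% of all genes tested. These were Hist1h3f, Hist1h3e, Hist1h2bf, Hist1h2ad, Hist2h2ab and Hist2h4, and 0 had the reverse order, against 1.56%. Hist1h2ad passed the filter mainly through the mutants, so its place among the 6 adds no support. None of the 6 passed the adjusted test with equal weights. With library weights, whose estimate stopped before convergence, 5 of them, all but Hist1h3e, were among the 15 called.

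By cluster, the sum for Hist1 was 1669 ± 209 FPKM in controls against 2007 ± 491 FPKM in mutants. It was 191 ± 19.4 and 246 ± 64.7 FPKM for Hist2, and 128 ± 20.2 and 145 ± 13.3 FPKM for Hist3. The Hist3 sum was lowest in control replicate 3 (106 FPKM), and 0 of its 3 genes had D to F all above A to C, against 31 of 46 tested in Hist1. Over all genes tested that share was 15.1%, so a count of 0 among 3 genes does not set the cluster apart. Hist3h2ba measured 49.1, 46.5 and 38.9 FPKM in controls and 48.3, 57.0 and 48.7 FPKM in mutants, and control replicate 3 was again its lowest library. The difference between clusters was not tested.

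Divergent pairs of an H2A and an H2B gene offered a view of neighbours that share 1 intergenic stretch. With starts at most 1000 bases apart there were 13 such pairs, 11 in Hist1, 1 in Hist2 and 1 in Hist3, and their starts lay 164 to 281 bases apart. The H2B member of the Hist3 pair is the pseudogene Hist3h2bb-ps. Starts came from RefSeq, or from GENCODE for 1 gene in each of 3 pairs. Both genes of a pair were above 0 in 10 pairs, and the H2B gene had the higher mean FPKM in 6 of them. Levels within a pair were often unequal, as for Hist1h2ag and Hist1h2bj, at 2.46 and 17.5 FPKM. In the pair of Hist1h2ak and Hist1h2bn the H2A gene was the higher, at 29.0 against 14.5 FPKM, as it was for Hist2h2ac and Hist2h2be, at 28.1 and 6.11 FPKM. The FPKM of this last pair rest on lengths of 468 and 2618 bases, and the order differs in reads. Hist2h2be had 547, 455 and 338 reads in controls and 356, 475 and 395 in mutants. Hist2h2ac had 319, 212 and 406 reads in controls and 203, 473 and 536 in mutants. Hist1h2ag has no distinct coding window, and the share of sequence within each type and the length used for each gene limit this comparison.

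None of the genes tested that make or place histones passed the test. Among 17 genes of histone mRNA transcription and processing, 16 were tested, 8 had differences above 0 and 8 below, 0 were called, and the median was 0.00. Slbp measured 11.97, 10.1 and 10.4 FPKM in controls and 13.0, 11.2 and 12.3 FPKM in mutants, and Npat 12.2, 11.4 and 10.6 against 12.5, 10.8 and 9.96 FPKM. Lsm10 had every mutant library above every control library. It is a subunit of the U7 snRNP that cuts histone pre-mRNA. It had 4.05, 4.12 and 3.85 FPKM in controls and 5.62, 5.17 and 5.35 FPKM in mutants (0.35, SE 0.11, unadjusted p = 0.0122, adjusted p = 0.9998 by limma). Lsm11, its partner in that particle, did not share this order, at 6.21, 6.70 and 5.88 FPKM against 6.37, 5.88 and 5.74 FPKM. Histone chaperones, which carry histones to DNA, gave 8 differences above 0 and 8 below among 16 tested, with 0 called. Replacement variants, which are made throughout the cell cycle from polyadenylated mRNA, gave 4 above and 7 below among 11, with 0 called and a median of -0.03.

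The cell cycle lists were highest in another library than the histone genes. Of 22 tested genes of DNA replication and S phase, 9 had differences above 0 and 13 below, with a median of -0.02. The list's mean level was, on the log2(FPKM + 1) scale, 2.74, 2.74 and 2.93 in controls and 2.84, 2.71 and 2.81 in mutants. Its highest library was control replicate 3, whereas that of the histone genes was mutant replicate 3. Pcna, the sliding clamp of DNA polymerase, had 27.4, 25.8 and 24.0 FPKM in controls and 29.8, 24.9 and 23.3 FPKM in mutants. Mki67, a proliferation marker, had 8.76, 6.90 and 12.4 against 8.93, 8.60 and 10.1 FPKM. The 12 mitosis genes gave 8 differences above 0 and 4 below, with a median of 0.02. Without control replicate 3 that median was 0.20, and that of the S phase list was 0.03. The mitosis level was 2.38, 2.37 and 2.89 in controls and 2.56, 2.47 and 2.67 in mutants. Control replicates 1 and 2 were its lowest libraries, and control replicate 3 and mutant replicate 3 its highest, as for the median histone gene. In both lists limma called 0 genes.

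Cell type markers differed along the letters as well. Pan-endothelial genes had a mean level between 4.71 and 4.84 in libraries A to C but between 4.96 and 5.82 in libraries D to F, and 14 of 20 markers had D to F all above A to C. Between genotypes the level was 4.71 to 5.82 in controls and 4.79 to 5.19 in mutants. All 20 markers had a difference below 0, with a median of -0.15, but without control replicate 3 the median was 0.16. Photoreceptor genes ran the other way, from 7.63 to 7.85 in A to C but only from 7.17 to 7.52 in D to F, with 15 of 18 genes below, and between genotypes 14 of 18 had a difference above 0, with a median of 0.08 that was -0.09 without control replicate 3 and -0.04 without mutant replicate 1. For pericyte and smooth muscle genes the level was 3.33 to 3.76 in the first 3 letters and 3.50 to 4.12 in the last 3. In the same order, retinal progenitor genes were at 4.31 to 4.46 and 4.22 to 4.31, Muller glia and astrocyte genes at 4.62 to 4.78 and 4.51 to 4.69, and microglia and macrophage genes at 1.99 to 2.80 and 2.44 to 2.90. Differences between genotypes were below 0 for 11 of 11 tested retinal progenitor genes (median -0.09) and for 11 of 12 microglia and macrophage genes (-0.14, or 0.04 without mutant replicate 1). They were below 0 for 5 of 10 Muller glia and astrocyte genes (0.01, or -0.06 without control replicate 3). For pericyte and smooth muscle genes this held for 3 of 11. Their median was 0.05, but 0.31 without control replicate 3 and -0.003 without mutant replicate 1. In each list limma called 0 genes. The endothelial level was highest in control replicate 3, and the histone sum was highest in mutant replicate 3. Over all genes tested, D to F were all above A to C for 15.1% and all below for 20%, and 47.5% had a difference between genotypes above 0. The part of these cell types in the histone values was not tested.

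**Figure D5:**
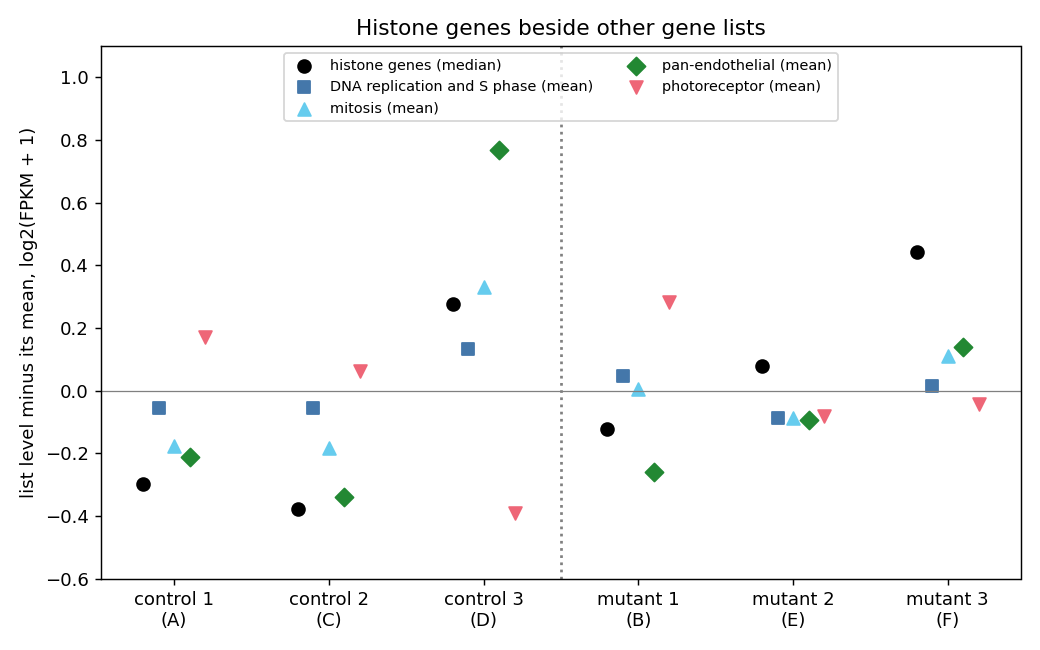
Points give the level of each gene list in each library on the log2(FPKM + 1) scale, minus the list's mean over the 6 libraries (the median gene for histones, the mean gene for the other lists). The histone median is highest in mutant replicate 3, while the S phase, mitosis and pan-endothelial levels are highest in control replicate 3.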

How the data were processed

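Expression was measured in 6 libraries, 3 per genotype, grouped by the labels. The authors deposited FPKM values, with 24421 gene rows and 1 column per library. The submitters' processing notes name build mm10 and the tools DESeq2, Cufflinks 2.2.1, bedtools 2.17.0 and STAR 2.5.0b. What each did, the annotation, the strand setting and the handling of multiply mapping reads were not given in the sources used here. Eno1, a glycolysis enzyme of nearly every cell, is listed at 0 in 5 of 6 libraries, so a 0 can be a failed estimate.

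Differences in the deposited FPKM values were fitted in R 4.3.3 with limma 3.58.1 on log2(FPKM + 1), with a trended prior, two-sided. The 13622 genes that reached 1 FPKM in 3 or more libraries entered, with Benjamini-Hochberg adjustment over all of them and a threshold of 0.05. This scale understates changes of low genes. Since low values are multiples of a step, the FPKM of 1 read, reads could be recovered with depth factors taken from miRNA hairpin genes. Whole reads resulted for 16491 of 16491 rows above 0 throughout, with a tolerance of 0.002 reads that rises to 0.05 at high counts. They totalled 21386054 to 30904076 per library and served for depth and for a voom alternative. The fit was checked on simulated counts for 13622 genes, with 50 changed at each fold. It recovered 36% of changes of 1.5-fold, 90% of 2-fold and 96% of 4-fold and of 8-fold, with 18 false calls. The simulated libraries had the same spread for all genes and held no shift along the letters, unlike these data. The shares recovered may therefore be lower here. In the real fit Anxa3, with a log2 difference of -0.93, was not called either (adjusted p = 0.9998 by limma). A count of 0 called therefore says little about differences of 1.5-fold or less, and larger ones can also have been missed.

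Named histone genes are the 12 highest by mean FPKM, the highest of each type in each cluster, and, for each direction, the 4 of lowest unadjusted p. From each other gene list up to 3 genes with the smallest p qualified, with Anxa3, Slbp, Npat, Mki67 and Pcna. Other names (Hist1h2ad, Hist1h2ai, Hist3h2bb-ps, Hist1h1a, Hist1h1b, Lsm11 and the genes given for sequence, pairs or a value near 0) were chosen after their values were seen. The members and lists were chosen with earlier results of these data known. Alternatives were a pseudocount of 0.1, no filter or a stricter one, median-of-ratios scaling, quantile normalization, a replicate block, a letter block, library weights, voom and the omission of each library. Tables and figures were made with Python 3.11.15, numpy 2.4.6, pandas 2.3.3 and matplotlib 3.10.9.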

Additional observations from a re-analysis of the deposited data

How the results depend on the processing

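Median-of-ratios scaling left the counts of 0 genes and 0 histone genes called, but its factor was 1.002 in every library, so it was no separate check. The same counts held under a pseudocount of 0.1, both other filters, quantile normalization, the letter block, voom and the omission of each library. They did not hold with library weights, which called 145 genes (125 higher, 0.918%, and 20 lower, 0.147%) and 15 histone genes, and whose estimate stopped before convergence. The median histone difference was then 0.50, against 0.29. With the replicate block, 0 genes and 0 histone genes were called, 21 histone genes had an unadjusted limma p under 0.05 in place of 8 (1.5% of all genes tested were higher at that p), and the median stayed at 0.29. Same-numbered libraries correlated at 0.249, -0.151 and 0.391 over genes, so the number was not taken as a pairing. Leaving out 1 library gave a median from 0.13 to 0.45, a log2 ratio of sums from 0.11 to 0.44, an Anxa3 difference from -1.15 to -0.53 and 2 to 23 histone genes at an unadjusted p under 0.05, with 23 without control replicate 3 and 23 without mutant replicate 1. The sign turned for 16 of 56 tested histone genes in at least 1 such omission. With voom 7 were under 0.05, against 0.617% of all genes tested that were higher at that p. The ratio of sums was recomputed only under median-of-ratios scaling and the omissions, since the other settings act on the log values or the fit. Equal scaling factors cannot change that ratio, so only the omissions varied it. Depth limits the genes with fewest reads, such as Hist1h2ba with 0 to 38 per library.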
